A study of Mus musculus with 9 samples.

Results

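Peritubular myoid cells from the testes of C57BL/6J mice, kept in primary culture, were compared 6 h after a heat treatment with untreated cells, in 3 RNA-seq libraries per group. The heated dishes had spent 30 min in a water bath at 42 °C before they went back to the incubator at 37 °C, and the control cells had no heat. No transgene, deletion or other agent is named for either group, and the labels do not say whether the replicates of a group came from separate animals, isolations or dishes, so the spread that the tests measure is that of these libraries and may be technical only. The genes compared were those with at least 1 FPKM (fragments per kilobase of transcript, scaled to the number of mapped fragments) in at least 3 of the 6 libraries, which was true of 11268 of the 17559 genes with values.

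Peritubular myoid cells are contractile, smooth-muscle-like cells that wrap the seminiferous tubule, deposit its basement membrane with the Sertoli cells and secrete factors that act on spermatogonia. When cells are heated, unfolded proteins draw chaperones away from heat-shock factor 1, which then binds arrays of inverted nGAAn units, called heat-shock elements, upstream of chaperone genes. Rising HSP70 and HSP40 proteins shut the factor off again, so the transcripts usually peak early and decline during recovery.

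The 6 libraries held an estimated 18400000 to 19900000 reads each. Pearson correlations of log2(FPKM + 1) over the genes tested ranged from 0.93 to 0.976 within a group and from 0.915 to 0.985 between groups. The highest value was that of 6 h replicate 3 with control 1, and the lowest that of 6 h replicate 2 with control 3. The 6 h libraries therefore did not stand together as a group. The median SD over genes was 0.24 log2 units among the controls and 0.28 among the 6 h libraries. Acta2, the smooth muscle actin that marks myoid cells, stood at 992 to 1627 FPKM in all 6 libraries, and Tagln, another actin-binding protein of smooth muscle, at 1602 to 2231. Des and Cnn1, further contractile markers (named after their values were seen), ranged from 11.0 to 63.7 and from 18.4 to 119 FPKM. Markers of other testicular cells were present as well. Insl3, a Leydig cell hormone, stood at 181 to 1607 FPKM, and Clu, abundant in Sertoli cells, at 2700 FPKM in control 3 and at 223 to 399 FPKM in the other libraries. Among the 11 Leydig cell markers 7 passed the filter, while Hsd3b6, Cyp17a1, Hsd17b3 and Lhcgr did not (these were named after their values were seen). Of the 15 germ cell markers 2, Ddx4 and Uchl1, passed the filter.

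The comparison asked which transcripts differed from control after 6 h of recovery. Calls at an adjusted p below 0.05 came to 0% of genes higher and 0% lower (limma, smallest Benjamini-Hochberg adjusted p 0.9985). At an unadjusted p below 0.05, limma gave 89 genes higher (0.79%) and 171 lower (1.52%), together fewer than the 563 that this threshold gives among 11268 unaffected genes. All 3 heated libraries lay above all 3 controls for 210 genes (1.86%) and below them for 606 (5.38%), 816 genes in all. With 3 libraries against 3, an unaffected gene lacks overlap in either direction with a probability of 0.1. The 816 genes are a smaller share of the 11268 than that, so a lack of overlap alone does not set a gene apart from unaffected ones. The median gene had a log2 change of -0.06. After median-of-ratios scaling, which brought that median to -0.01, the split was 381 above and 456 below. It was 473 and 438 with quantile normalization. The excess of genes below the controls thus depended on how the libraries were scaled. Directions given here are those of the deposited FPKM.

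Each 6 h library differed from the controls in its own way. Replicate 2 was above all controls for 2544 genes and below them for 4544, replicate 1 for 2413 and 3487, and replicate 3 for 1991 and 2028. These are 21.4% and 30.9% of genes above and below in replicate 1, 22.6% and 40.3% in replicate 2, and 17.7% and 18% in replicate 3, and the counts of list members in single replicates stand beside these shares. Genes that were also at least 2-fold from the control mean, in FPKM + 1, numbered 325 higher and 586 lower in replicate 2, 242 and 203 in replicate 1, but 68 and 42 in replicate 3. The absence of calls depended on replicate 1. Without it, limma called 12 genes on the higher side and 0 on the lower at an adjusted p below 0.05. All 12 stood higher in replicates 2 and 3 than in any other library and are described with that pair below. Weights estimated for each library gave 64 genes higher and 26 lower, with a weight of 20.5 for replicate 3 against 0.23 for replicate 2 and 0.36 for replicate 1, and the estimation stopped before it converged. Every other alternative gave 0 calls.

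The inducible HSP70 genes stood above all controls in each heated library. Hspa1a (chr17:34969359-34972156, minus strand, mm10) encodes the major stress-inducible HSP70, which refolds damaged proteins. Its controls stood at 10.2, 12.3 and 6.92 FPKM and its 6 h replicates 1 to 3 at 49.3, 27.1 and 40.4 FPKM. Replicate 2 was the lowest of the heated libraries and still 2.76 times the control mean, beside 5.03 and 4.12 times in replicates 1 and 3. The log2 change was 1.88 (SE 0.28), the lowest unadjusted p of all genes tested, with a limma adjusted p of 0.9985. Hspa1b (chr17:34956429-34959238, minus strand), the neighbouring copy with a nearly identical product, stood at 25.9, 29.8 and 14.0 FPKM in the controls and at 85.5, 52.6 and 62.9 at 6 h. Its log2 change was 1.53 (SE 0.31), and the groups did not overlap. Reads shared by both copies may have been divided between them in a way that the table does not record, so their separate levels are uncertain.

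The promoters of both genes are shown because the 2 copies stood above control together. RefSeq's sequence of GRCm38.p6 (mm10) was read for the 250 bases before the transcription start. Pairs of inverted units, GAANNTTC or TTCNNGAA, are in capitals. Each of these motifs is its own reverse complement, so a search of 1 strand covers both.

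Hspa1a, chr17:34972157-34972406, minus strand: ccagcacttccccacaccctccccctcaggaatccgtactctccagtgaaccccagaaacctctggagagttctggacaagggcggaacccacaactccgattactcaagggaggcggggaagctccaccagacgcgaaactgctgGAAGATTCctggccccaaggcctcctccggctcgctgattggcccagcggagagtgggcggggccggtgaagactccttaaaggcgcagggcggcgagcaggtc

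The window of Hspa1b, chr17:34959239-34959488 on the minus strand, was identical at 247 of 250 positions. It differed from that of Hspa1a by C44T, T47C and T249G, with the Hspa1a base first and positions counted from 1 at the 5′ end of the window. Both windows held 1 pair of inverted units, starting 104 bases before the start. Such a pair is common, since 12.8% of the 32851 RefSeq mouse promoter windows held one in the same 250 bases. A match describes the sequence only and is no evidence of binding.

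A second set of chaperones was high in replicates 1 and 3 and at or below the control level in replicate 2. Hsph1 encodes HSP110, a nucleotide exchange factor for HSP70. Its controls stood at 18.6, 23.1 and 22.6 FPKM and its 6 h replicates at 289, 15.9 and 110 FPKM, so replicate 2 was below every control. Dnaja4, an HSP40 co-chaperone, stood at 4.80, 6.15 and 9.05 FPKM in the controls and at 122, 4.85 and 35.9 at 6 h. Replicates 1 and 3 were 18.3 and 5.38 times the control mean, and replicate 2 lay among the controls. Hspb1, the small heat-shock protein HSP27 that holds unfolded proteins in solution, stood at 154, 123 and 343 FPKM in the controls and at 2484, 202 and 804 at 6 h. These were the only 3 genes of 11268 that stood more than 2 times above all other libraries, in FPKM + 1, in both of replicates 1 and 3. Their log2 changes of 1.87 (SE 0.89), 2.0 (SE 0.95) and 1.98 (SE 0.84) did not pass the limma test (adjusted p 0.9985 for each), and without replicate 2 they did not either.

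Some chaperones with a high level in untreated cells were also highest in replicate 1 and lowest in replicate 2. Hsp90aa1, the inducible HSP90, stood at 357, 419 and 328 FPKM in the controls and at 1307, 264 and 703 at 6 h, with replicate 2 again below every control. Hsp90ab1, the constitutive HSP90, was above all controls in each replicate, at 718, 858 and 673 FPKM in the controls and 1188, 904 and 1007 at 6 h. Hspe1, the mitochondrial HSP10 that caps the HSP60 folding chamber, went with it at 193, 279 and 187 FPKM in the controls and 716, 284 and 428 at 6 h, where replicate 2 exceeded the highest control only narrowly. Its log2 change was 1.03 (SE 0.35). Hspd1, the HSP60 subunit itself, stood at 191, 306 and 188 FPKM in the controls and at 524, 119 and 315 at 6 h, so in replicate 2 it was below every control while Hspe1 was not (Hspd1 was named after its values were seen).

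The heat-shock elements of Hspe1 and Hsph1 are shown for comparison with the HSP70 promoters, with inverted pairs in capitals and 30 bases each.

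Hspe1, chr1:55088053-55088082, plus strand: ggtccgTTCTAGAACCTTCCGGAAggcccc

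Hsph1, chr5:149636287-149636316, minus strand: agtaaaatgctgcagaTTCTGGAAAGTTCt

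In Hspe1 the run begins 89 bases before RefSeq's transcription start and holds 2 overlapping arrays of 3 units (GAANNTTCNNGAA or, on the other strand, TTCNNGAANNTTC), each of which also contains the paired motif. In Hsph1 1 such array begins at base 37 of RefSeq's transcript. Arrays of 3 units were found in 0.466% of all windows over the 250 bases before the start and in 0.603% over all 300 bases of the windows. Neither Hspa1a nor Hspa1b held such an array in the 250 bases shown. The 50 bases after the start, where that of Hsph1 lies, were not searched in these 2 genes, so they are not compared alike with Hsph1.

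Most other chaperones overlapped with control. Over the 7 lists of chaperones and co-chaperones other than that of the endoplasmic reticulum, with 63 members tested, 5 were above all controls in all 3 replicates (7.94%, beside 1.86% of all genes) and 2 below (3.17%, beside 5.38%), with a median log2 change of 0.07. The 2 below were Hspa13 and Dnajc3, which were listed by their HSP70 and HSP40 families, although Dnajc3 resides in the endoplasmic reticulum. The 5 above were Hspa1a, Hspa1b, Hsp90ab1, Hspe1 and Bag3, the nucleotide exchange factor that links HSP70 to selective autophagy, at 60.6, 62.5 and 69.5 FPKM in the controls and 74.2, 70.2 and 78.2 at 6 h. The groups of Bag3 were barely apart, so it adds little to the count, and Hspa1a and Hspa1b may share reads. Per replicate, 21 members were above all controls and 11 below in replicate 1, 19 and 6 in replicate 3, and 10 and 23 in replicate 2. In replicate 2 that is no larger a share below than the 40.3% of all genes. Hspa8, the constitutive HSC70, stood at 1515, 1665 and 1248 FPKM in the controls and 1076, 1768 and 1294 at 6 h, and Dnajb1, the main HSP40 partner of HSP70, at 27.4, 23.1 and 19.2 against 24.2, 16.0 and 25.6. Both overlapped with control. Cryab, a small heat-shock protein abundant in muscle, stood at 1176, 1084 and 751 FPKM in the controls and at 1647, 618 and 1387 at 6 h. It had the order of Hsph1 over the replicates, but a smaller range. All 8 subunits of the CCT chaperonin overlapped with control, as did Hsf1, the heat-shock factor itself, at 18.9 to 20.4 FPKM in the controls and 19.99 to 21.0 at 6 h.

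**Figure D1:**
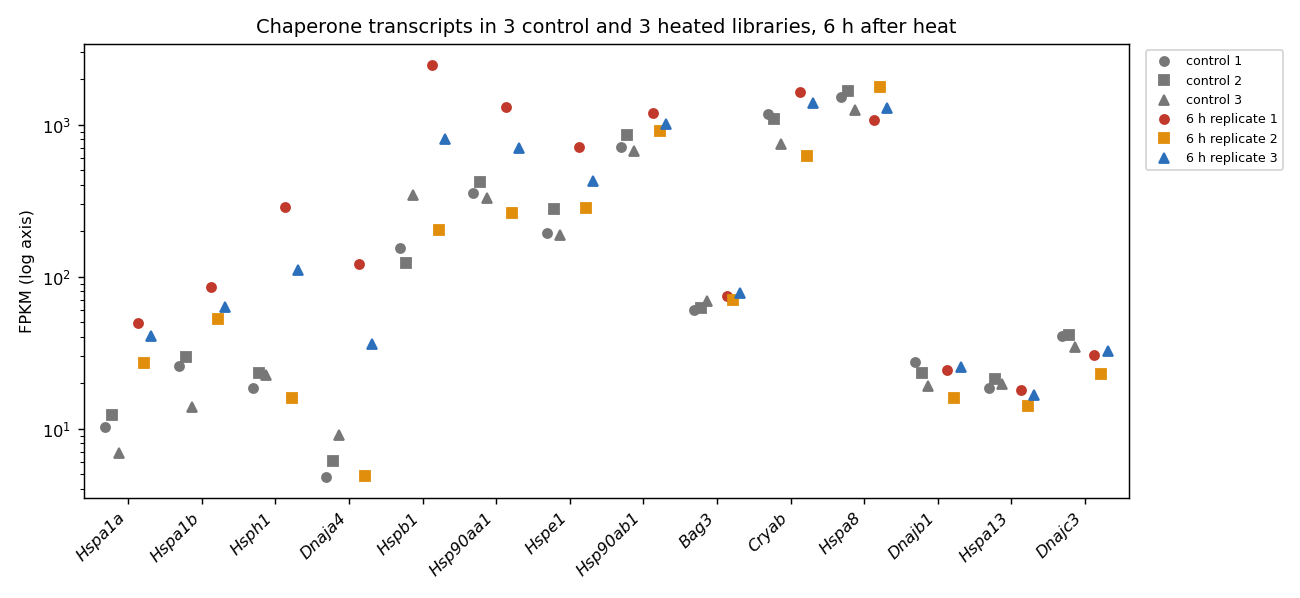
FPKM (log axis) of 14 chaperone genes in each library, with the 3 controls in grey and the 6 h replicates in colour. Hspa1a and Hspa1b are above all controls in all 3 heated libraries, while Hsph1, Dnaja4 and Hsp90aa1 are high in replicates 1 and 3 and at or below control in replicate 2.

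Some genes that serve folding, degradation or stress signalling in the endoplasmic reticulum were below all controls, and not all of them are chaperones. Of 17 tested, 0 were above all controls in all replicates and 5 were below (29.4%, beside 5.38% of all genes), with a median log2 change of -0.21. The 5 were Sel1l and Herpud1, which serve the export of misfolded proteins for degradation, the lectin chaperone Canx, and Dnajb11 and Edem1 (the last 2 named after their values were seen). Sel1l stood at 21.1, 20.5 and 27.0 FPKM in the controls and at 18.0, 13.3 and 18.2 at 6 h, a log2 change of -0.45 (SE 0.20). Herpud1 stood at 35.4, 30.1 and 32.3 against 21.5, 28.8 and 25.6 FPKM, a log2 change of -0.36 (SE 0.18). Canx stood at 151, 188 and 172 against 135, 123 and 146 FPKM, a log2 change of -0.34 (SE 0.18). Dnajb11, an HSP40 partner of Hspa5, stood at 89.0, 92.2 and 81.2 against 71.1, 64.6 and 76.4 FPKM. Edem1, which marks misfolded glycoproteins for degradation, stood at 15.8, 15.4 and 15.8 against 15.2, 14.5 and 14.9 FPKM, so that its groups were barely apart and it adds little to the count. Dnajc3, which inhibits the stress kinase PERK and resides in the same compartment, was also below all controls, at 40.8, 41.6 and 34.3 against 30.4, 23.0 and 32.5 FPKM. Hspa5, the HSP70 of this compartment, overlapped, at 404 to 626 FPKM in the controls and 474 to 528 at 6 h. By replicate, 12 members were below all controls in replicate 1 and 9 in replicate 3, where all genes gave 30.9% and 18%. In replicate 2, 6 were below and 4 above, shares near the 40.3% and 22.6% of all genes there. None of these genes passed the limma test.

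Among targets of p53, 3 genes lay below all controls. Gadd45a, a p53 target that takes part in DNA repair and cell-cycle arrest, stood at 24.5, 21.5 and 23.9 FPKM in the controls and at 11.9, 9.98 and 14.9 at 6 h, a log2 change of -0.89 (SE 0.19). The controls agreed within 1.56 FPKM (SD), and no heated library came near them. Fas, the death receptor, stood at 7.28, 11.0 and 8.43 against 5.06, 5.51 and 5.12 FPKM, a log2 change of -0.65 (SE 0.21). Bbc3, the BH3-only protein PUMA, stood at 6.59, 6.21 and 6.81 against 3.17, 4.40 and 4.52, a log2 change of -0.59 (SE 0.20). These 3 were 16.7% of the 18 p53 targets tested, beside 5.38% of all genes below all controls, and 0 were above, beside 1.86%. The other members did not share the pattern: the list's median was -0.59 in replicate 2, -0.07 in replicate 1 and 0.08 in replicate 3, where 6 members were above all controls and 5 below.

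The other genes that led the lower side have varied roles. Map4k3, a kinase upstream of JNK and of amino acid signalling to mTORC1, stood at 21.2, 20.3 and 21.1 FPKM in the controls and at 12.7, 10.3 and 12.7 at 6 h, a log2 change of -0.77 (SE 0.17). Klf9, a transcription factor induced by glucocorticoids, stood at 19.4, 19.9 and 18.2 against 13.8, 9.12 and 9.35 FPKM. Adamts9, a protease of the extracellular matrix, stood at 8.40, 12.7 and 8.84 against 3.64, 5.60 and 4.94 FPKM. Pid1, an adaptor that dampens insulin signalling, stood at 10.7, 9.14 and 14.9 against 4.70, 6.05 and 6.30 FPKM. The gene 1190002N15Rik stood at 36.5, 32.0 and 26.7 against 11.8, 10.8 and 22.2 FPKM. For these 5 genes the log2 changes lay between -1.10 and -0.77, and the groups did not overlap. The heated libraries of 1190002N15Rik were uneven, with replicate 3 well above the other two.

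Sorbs2 and Hp, the remaining leaders on the lower side, and Edn1, set apart in controls 1 and 3, had less even controls. Sorbs2, a cytoskeletal adaptor, stood at 15.9, 15.8 and 58.4 FPKM in the controls, the last being control 3, and at 5.65, 4.42 and 7.41 at 6 h. Hp, the acute-phase protein haptoglobin, stood at 6.24, 58.2 and 11.6 FPKM in the controls and at 0.75, 1.93 and 2.07 at 6 h. Edn1, the peptide endothelin 1 that makes myoid cells contract, stood at 34.2, 14.9 and 49.8 FPKM in the controls and at 9.71, 3.48 and 13.5 at 6 h, a log2 change of -1.79 (SE 0.53). For all 3 genes the groups did not overlap, although the controls differed widely among themselves. Of 15 clock genes 2 (13.3%), Cry1 and Cry2, which repress the circadian loop, were below all controls, beside 5.38% of all genes. Cry2 stood at 4.98, 5.12 and 8.80 against 3.99, 4.22 and 3.76 FPKM (Cry1 was named after its values were seen).

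On the higher side, the leading genes besides the HSP70 pair were not chaperones. Cd55, a surface protein that protects cells from complement, stood at 8.48, 6.31 and 5.30 FPKM in the controls and at 13.6, 19.4 and 15.8 at 6 h, a log2 change of 1.17 (SE 0.23). Dph5, an enzyme that modifies elongation factor 2, stood at 8.31, 9.93 and 6.09 against 14.2, 25.4 and 23.3 FPKM, a log2 change of 1.25 (SE 0.27). Stat5a, a transcription factor of cytokine and growth hormone signalling, stood at 19.0, 14.1 and 13.7 against 22.0, 29.0 and 27.4 FPKM, a log2 change of 0.71 (SE 0.20). Lgals3, the lectin galectin 3, stood at 58.6, 62.6 and 49.8 against 138, 143 and 72.0 FPKM. Moap1, a modulator of BAX-dependent apoptosis, stood at 1.28, 4.19 and 2.01 against 4.67, 12.7 and 10.8 FPKM, and Cd300a, an inhibitory receptor of leukocytes, at 0.36, 0.50 and 0.62 against 1.15, 12.5 and 6.59. In Cd55 and Stat5a the 3 heated libraries were close together, whereas in Dph5, Moap1 and Cd300a replicates 2 and 3 stood well above replicate 1, and in Lgals3 replicate 3 was near control.

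In the lists of degradation genes and secreted factors single members were above all controls, beside 1.86% of all genes, and such counts are no result about the lists. Sqstm1, the autophagy receptor p62, stood at 350, 328 and 409 FPKM in the controls and at 521, 445 and 464 at 6 h, the 1 of 11 autophagy genes above all controls (9.09%). Psma4, the 1 of 26 proteasome subunits above all controls (3.85%), stood at 150, 150 and 122 against 161, 160 and 158 FPKM. Igf1, a growth factor of the testicular interstitium, stood at 5.81, 4.2 and 5.67 against 12.9, 18.9 and 6.64 FPKM, a log2 change of 1.05 (SE 0.35). Among secreted factors, Csf1 overlapped between groups, and Gdnf, which maintains spermatogonia, stood at 5.81 FPKM in control 3 and at 0.07 to 0.92 FPKM in the other 5 libraries, below the filter.

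Proliferation genes separated replicate 1 from the others. All 22 mitotic genes tested were below all controls in replicate 1, with a median log2 difference of -1.23 from the control mean, and in replicates 2 and 3 the medians were -0.02 and 0.09. Mki67, the proliferation antigen Ki-67, stood at 11.8, 17.1 and 7.23 FPKM in the controls and at 3.79, 7.13 and 8.96 at 6 h. Birc5, the mitotic regulator survivin, stood at 44.4, 75.8 and 16.6 against 13.04, 31.0 and 43.6 FPKM. In both genes control 3 was the lowest of the controls, and replicate 1 was lower still. DNA replication genes had the same order, with medians of -0.74, 0.03 and 0.18, and 9 of 20 were below all controls in replicate 1. Rrm2, a subunit of ribonucleotide reductase, stood at 111, 139 and 30.5 FPKM in the controls and at 28.0, 56.9 and 94.2 at 6 h. The 42 genes of both lists had no member without overlap between the groups.

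Immediate early genes and interferon-response genes ran in opposite directions between replicates. Of 29 immediate early genes, which growth factors and stress induce within minutes, 14 were above all controls in replicate 1 and 0 below, while in replicate 2 0 were above and 16 below. The medians were 0.64, -0.67 and -0.31. Nr4a1, an orphan nuclear receptor, stood at 124, 94.8 and 33.0 FPKM in the controls and at 204, 22.7 and 28.3 at 6 h, and Dusp5, a phosphatase of nuclear ERK, at 25.0, 18.4 and 14.96 against 75.5, 7.63 and 20.4 (both named after their values were seen). Interferon-response genes were below all controls in replicate 1 for 12 of 16 and above them in replicate 2 for 12 of 16, with medians of -1.08, 1.12 and 0.37. Isg15, the ubiquitin-like modifier, stood at 61.9, 18.0 and 35.3 FPKM in the controls and at 15.5, 119 and 72.5 at 6 h, and Ifit1, which binds viral RNA, at 10.5, 3.01 and 12.3 against 1.96, 23.2 and 14.8 (both named after their values were seen). Control 2 was the lowest control for both. Ifit2 was the single member (6.25%, beside 5.38% of all genes) below all controls in every replicate, at 4.77, 7.72 and 7.57 against 2.62, 3.23 and 4.50 FPKM.

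Ribosomal protein genes were highest in replicate 2. All 30 cytosolic ribosomal protein genes were above all controls there, with a median log2 difference of 0.79, while 19 were in replicate 3 (0.32) and 0 in replicate 1 (-0.01). Rplp1, a stalk protein of the large subunit, stood at 1985, 2190 and 999 FPKM in the controls and at 1714, 3258 and 2238 at 6 h. Mt1 and Mt2, the metal-binding metallothioneins, stood at 1341 and 1407 FPKM in replicate 2 and at 292 to 751 FPKM in the other libraries. Contractile genes were lowest there, with 11 of 14 below all controls and a median of -0.51, beside -0.13 and -0.07 in replicates 1 and 3. Myh11, smooth muscle myosin, stood at 15.8, 27.5 and 48.8 FPKM in the controls and at 35.9, 8.41 and 11.9 at 6 h. Acta2 stood at 1505, 1349 and 1627 against 992, 1005 and 1536 FPKM, with replicates 1 and 2 below all controls and replicate 3 among them.

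**Figure D2:**
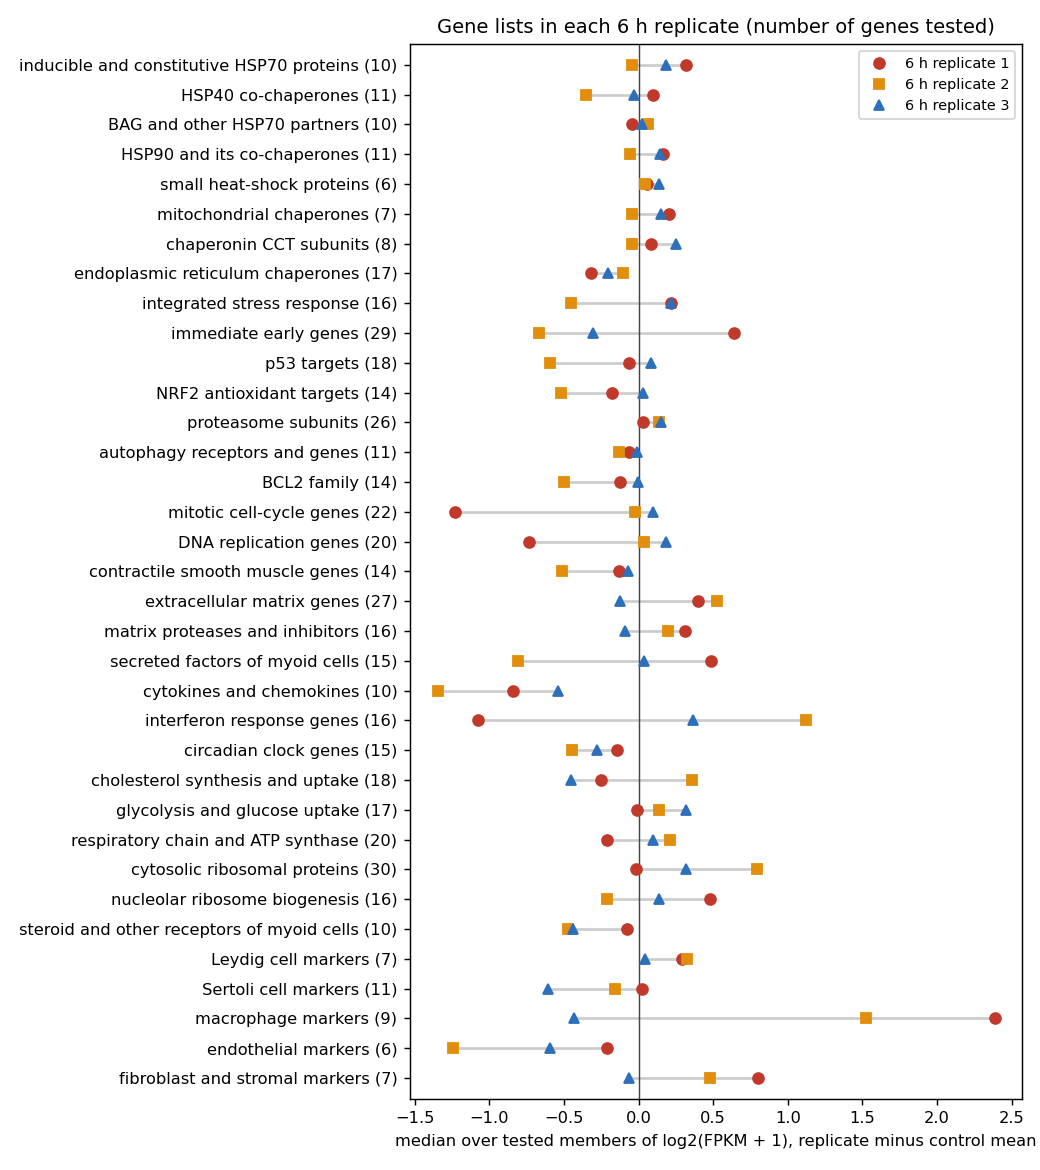
Median log2(FPKM + 1) difference from the control mean over the tested members of each list with at least 6 such members, for each 6 h replicate. Mitotic genes lie at -1.23, -0.02 and 0.09 in replicates 1 to 3, interferon-response genes at -1.08, 1.12 and 0.37, and macrophage markers at 2.39, 1.52 and -0.43.

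Library differences followed transcript length. When genes were divided into 5 equal bins by their longest transcript, the median log2 difference of replicate 2 from control went from 0.18 in the shortest bin (up to 1609 bp) to -0.50 in the longest (4708 bp and more). In replicate 3 it went from 0.11 to -0.12, and in replicate 1 from -0.12 to -0.03. Control 3 differed from the other controls in the opposite direction to replicate 2, from -0.27 to 0.32. The share of genes below all controls in every replicate was 1.24% in the shortest bin and 9.99% in the longest, and the share above was 2.75% and 0.666%. Genes below all controls had a median longest transcript of 4075 bp, against 2156 bp for those above and 2860.5 bp for all genes tested.

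Centring each library within 20 bins of transcript length, an alternative chosen after the data were seen, gave 403 genes above and 457 below, of which 160 and 326 were among the 210 and 606. Hspa1a, Hspa1b, Gadd45a and Map4k3 were on the same side with it. All 30 ribosomal protein genes were still above all controls in replicate 2 (median 0.53), 10 in replicate 3 and 7 in replicate 1. Of the 17 genes of the endoplasmic reticulum list, 4 were below all controls with it.

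**Figure D3:**
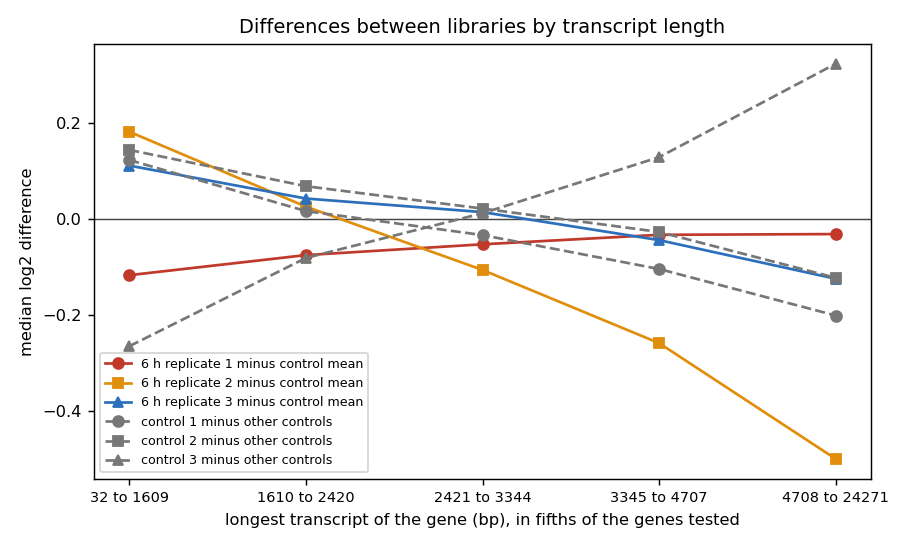
Median log2 difference of each library by bin of longest transcript length, for 6 h replicates against the control mean (solid) and each control against the other 2 controls (dashed). Replicate 2 goes from 0.18 to -0.50 and control 3 from -0.27 to 0.32.

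Macrophage markers were higher in replicates 1 and 2 than in the controls, and near the control level in replicate 3. Of 13 macrophage markers 9 passed the filter, and 8 of these were above all controls in replicates 1 and 2 each, and 0 in replicate 3. The summed FPKM of the whole list was 57.9 to 112 in the controls and 343, 257 and 50.7 at 6 h. Lyz2, the lysozyme of phagocytes, stood at 31.4, 19.2 and 60.0 FPKM in the controls and at 178, 156 and 24.3 at 6 h, and Tyrobp, a signalling adaptor of myeloid receptors, at 3.13, 1.59 and 3.15 against 18.6, 17.3 and 1.89. Csf1r, the receptor for the macrophage growth factor Csf1, stood at 2.38, 3.94 and 2.38 against 8.68, 8.37 and 2.75 FPKM. The defining markers Adgre1 and Ptprc were low in every library, at 0.22 to 1.64 and 0.08 to 0.90 FPKM, and C1qb was at 0 in control 2. In bulk RNA, more cells of a type and more RNA per cell cannot be told apart (Csf1r, Adgre1, Ptprc and C1qb were named after their values were seen).

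The same 2 replicates shared 28 genes, 0.248% of those tested, whose FPKM + 1 was over 2 times that of the 4 libraries left. Slc38a5, a transporter of glutamine and serine, led them at 4.76, 4.02 and 1.25 FPKM in the controls and 80.4, 85.5 and 4.50 at 6 h. Mgp, a matrix protein that inhibits calcification, stood at 87.9, 39.9 and 19.6 FPKM in the controls and at 942, 681 and 23.4 at 6 h. In both, replicate 3 lay within the range of the controls. Matrix genes partly followed. Of 27 tested, 14 were above all controls in replicate 1 and 16 in replicate 2, and 0 in replicate 3, with medians of 0.40, 0.52 and -0.12. Dcn, the collagen-binding proteoglycan decorin, stood at 66.4, 56.0 and 46.7 FPKM in the controls and 139, 350 and 55.4 at 6 h, and Col3a1, fibrillar collagen III, at 308, 180 and 282 against 442, 1050 and 200 (Col3a1 was named after its values were seen). Igf1 and Lgals3 were likewise higher in replicates 1 and 2 than in replicate 3.

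A different set of 25 genes, 0.222% of those tested, were set apart by the same measure in replicates 2 and 3. Pbld1, an enzyme-like protein of the phenazine biosynthesis family, stood at 0.33, 1.56 and 0.53 FPKM in the controls and at 0.46, 106 and 69.0 at 6 h. Foxr1, a forkhead transcription factor, stood at 2.78, 3.85 and 1.78 against 1.58, 57.9 and 40.2 FPKM, and Omd, the keratan sulphate proteoglycan osteomodulin, at 1.29, 0.38 and 0.18 against 0.57, 42.5 and 16.5. Park2, the ubiquitin ligase parkin, stood at 0.71, 0.53 and 0.70 FPKM in the controls and at 0.16, 309 and 201 at 6 h. It reached 1 FPKM in only 2 libraries and so was not among the genes tested. In each of these 4 genes replicate 1 lay among the controls or below them, and replicate 2 exceeded replicate 3.

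The set includes all 12 genes that passed when replicate 1 was left out, which are Pbld1, Foxr1, Omd, Cd300a, Cxcr2, H2-T24, Nmrk1, Neu3, Rmi2, Slc7a14, Dclre1c and Churc1 (the last 8 named after their values were seen). Cxcr2, a chemokine receptor of neutrophils, stood at 4.02, 5.14 and 3.5 FPKM in the controls and at 2.70, 56.1 and 38.7 at 6 h. Churc1, a zinc-finger protein, stood at 59.0, 64.2 and 43.4 against 39.5, 403 and 274 FPKM. Nmrk1, a kinase that makes NAD from nicotinamide riboside, stood at 6.78, 5.49 and 5.58 against 5.14, 52.9 and 37.7 FPKM. Replicate 1 was below all controls for each of these 3.

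**Figure D4:**
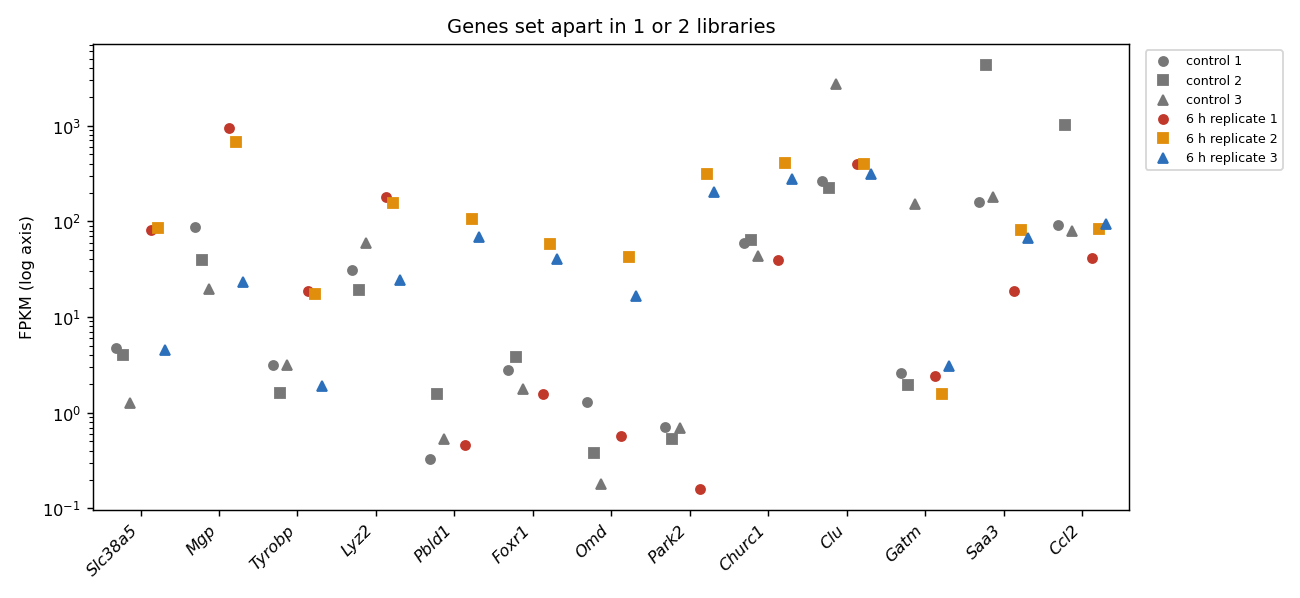
FPKM (log axis) of genes set apart in 1 or 2 of the 6 libraries, controls in grey and 6 h replicates in colour. Slc38a5, Mgp, Tyrobp and Lyz2 are high in replicates 1 and 2, Pbld1, Foxr1, Omd, Park2 and Churc1 in replicates 2 and 3, Clu and Gatm in control 3, and Saa3 and Ccl2 in control 2.

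Genes were also set apart in single libraries, and some of them belong to the sets of library pairs as well. Hsph1, Dnaja4 and Hspb1 are counted in replicate 1 too, and Dcn and Omd in replicate 2. Replicate 1 held 54 genes more than 2 times above all other libraries, replicate 2 held 56 and replicate 3 held 1, while controls 1, 2 and 3 held 10, 19 and 187. Replicate 1 was led by Aldh1a3, which makes retinoic acid, at 30.3 FPKM and at most 3.04 elsewhere, and Serpinb2, an inhibitor of plasminogen activators, at 224 FPKM and at most 51.9 elsewhere. Inhba, which encodes the activin A subunit, stood there at 295 FPKM and at 22.6 to 79.9 in the others (named after its values were seen). Replicate 2 was led by Ifi205, an interferon-inducible gene, at 14.2 FPKM and at most 1.90 elsewhere, and Igfbp4, which binds insulin-like growth factors, at 607 FPKM and at most 142. The 1 gene of replicate 3 was Lrrn4, a leucine-rich repeat protein, at 16.2 FPKM and at most 6.95 elsewhere.

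Control 2 and control 3 widen the control range for particular genes. Control 2 held acute-phase and chemokine transcripts, with Saa3 at 4290 FPKM against 158 and 178 in the other controls and 18.8, 82.0 and 67.0 at 6 h, and Ccl2 at 1017 FPKM against 79.5 and 92.0 in the other controls and 41.4, 82.4 and 93.7 at 6 h. Saa3 was below all controls in every heated library also beside the other 2 controls, and Ccl2 was not. Control 3 held genes such as Tmem184a, Gatm and Cst12 at 108, 150 and 76.6 FPKM, with at most 3.10 FPKM in any other library. The summed FPKM of 15 Sertoli cell markers was 4230 in control 3 and 611 to 1030 elsewhere. Clu and Ctsl, at 2700 and 937 FPKM, made up most of the sum in control 3. Of that list 11 members were tested. Cldn11, Wt1, Sox9 and Aard stood at 237, 53.8, 27.7 and 70.9 FPKM in control 3. In the other libraries they stood at no more than 8.23, 7.85, 8.05 and 7.12 FPKM. Inha, Inhbb, Gata4, Krt18 and Trf were tested and not set apart there. Amh and Fshr, a hormone and a receptor that define the cell type, were at or below 0.26 and 0.09 FPKM in all 6 libraries (all but Clu were named after their values were seen). The part of the genes set apart in controls 2 and 3 in the differences from control was not tested.

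The authors' deposited table holds 1040 genes for this comparison with a 2-fold or larger change and a q-value up to 0.001, 485 higher and 555 lower. Of these, 379 were tested here, and the other listed genes did not reach 1 FPKM in 3 of the 6 libraries. The filter thus left out genes low in the controls and high in only 1 or 2 heated libraries, as Park2 was. It likewise left out genes low in the heated libraries and high in only 1 or 2 controls. Both shape the split below. Of the 196 higher genes that were tested here, 29 (14.8%, beside 1.86% of all genes) were above all controls in all heated replicates, 140 in 2 of them and 27 in 1. Of the 183 lower genes tested, 44 (24%, beside 5.38% of all genes) were below all controls in all 3 replicates, 44 in 2, 51 in 1 and 44 in none. The authors' list was drawn from these same libraries. Among the lower genes 104 belonged to the set found in control 3 alone. Among the higher genes 29 and 33 belonged to the corresponding sets of replicates 1 and 2. The deposited log2 fold changes were 1.98 for Hspa1a, 2.67 for Hsph1, 3.004 for Dnaja4 and 7.60 for Park2 in the authors' deposited table. The first of these 4 was carried by 3 heated libraries and each of the others by 2.

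**Figure D5:**
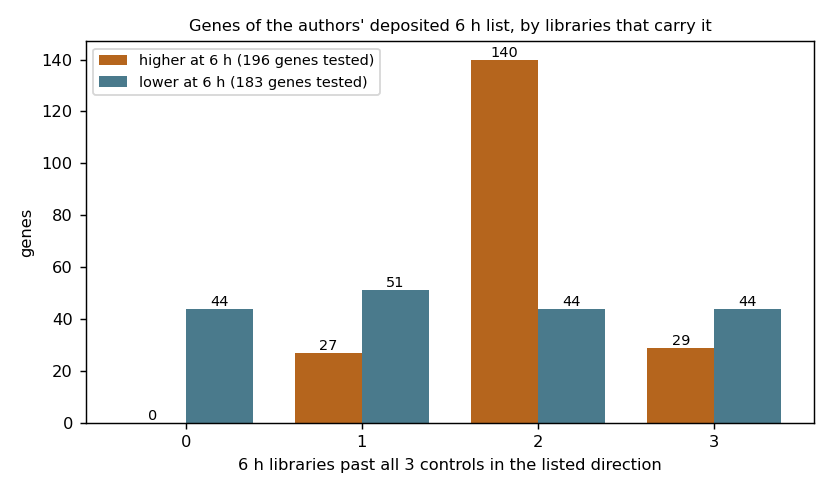
Genes of the authors' deposited list for 6 h against control that were tested here, by the number of 6 h libraries lying past all 3 controls in the listed direction. Of the higher genes 140 of 196 rest on 2 libraries and 29 on 3, and of the lower genes 44 of 183 rest on none.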

How the data were processed

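RNA from 3 control and 3 heated libraries was sequenced, and the authors deposited 1 table with FPKM values per gene. Per the submitters' processing notes, the tools were RSEM 1.2.12, HISAT2 2.0.4 and Bowtie2 2.2.5 on mm10, listed without their roles. The authors' deposited table also gives log2 fold changes and p-values of their own comparison, and q-values from DEGseq, per the file headers. FPKM values do not hold the depth, so read numbers were estimated here from the spacing of low values. The column names carry no sample of another series.

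Differences were tested on log2(FPKM + 1) with limma 3.58.1 (R 4.3.3), using a variance trend, 4 residual degrees of freedom and Benjamini-Hochberg adjustment over 11268 genes. The script was tested on data simulated with independent noise for each gene. Such data lack the shifts that many genes share in these libraries, so that run does not show how limma behaves on them. The pseudocount of 1 shrinks the change of low genes. A gene did not overlap when all 3 heated libraries lay past all 3 controls, and an exact permutation test of 3 against 3 cannot give a p below 0.1. Per-replicate values are differences from the control mean on the same log2 scale.

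The genes named were, per direction, the 8 of lowest p without overlap whose higher group averaged 5 FPKM or more; up to 3 members of each list without overlap, or else the 2 most abundant; a fixed set that includes the known heat-shock genes; and, for each library or pair of libraries of a group, the 3 genes standing highest above the others. Genes outside this rule are marked where they appear, apart from those listed there as members of a set. The lists, members and rules were chosen with earlier results of these data known. The same-numbered replicates of the groups were not treated as pairs. Alternatives were other pseudocounts, filters and scalings, library weights, all 9 libraries in 1 fit, a replicate block, leaving out each library, and, chosen after the data were seen, centring by transcript length.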

Additional observations from a re-analysis of the deposited data

How the results depend on the processing

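The counts of 0 genes called higher and 0 lower by limma were the same with pseudocounts of 0.1 and 5, no filter, a filter of 5 FPKM, median-of-ratios scaling, quantile normalization, all 9 libraries in 1 fit, no variance trend and length centring, with 167 to 512 genes at an unadjusted p below 0.05. They moved to 64 higher and 26 lower with library weights. Leaving out 1 library at a time gave 0 to 12 genes called higher and 0 lower. Genes above all controls numbered 330 without a filter, 381 with median-of-ratios scaling, 473 with quantile normalization and 403 with length centring, and 555 to 830 when 1 library was left out, against 1021 to 1334 below. The rise in these counts follows from comparing 5 libraries instead of 6. Of the 377 different genes set apart in 1 library or a pair of libraries, 126 stood 3 times above the others.

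A replicate block, which assumes that equal numbers pair the libraries, gave 0 genes higher and 0 lower. The numbers are not stated to mark a shared source, and deviations of same-numbered libraries correlated at -0.18, 0.04 and 0.02. The 22 genes whose log2 change is printed kept its sign in every alternative. Most of them were named for groups that did not overlap. For such genes, leaving out a library, library weights or another pseudocount cannot reverse the sign, so this says little about them. The medians of 24 of 42 lists changed sign in at least 1 alternative, among them the mitotic, interferon-response, immediate early and p53 lists. The other 18 did not, among them the endoplasmic reticulum list (-0.33 to -0.10). With length centring, Hspb1 in replicates 1 and 3 was 1.86 times above the other libraries rather than over 2 times.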
